A study of Rattus norvegicus with 82 samples.

Results

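The genes described here are the mitosis and G2/M genes of the rat heart, the set that a dividing cell switches on between the end of DNA replication and the separation of its daughters. The list was written by gene symbol and holds 39 genes. Of these, 34 were found on the array under a symbol of their own, 22 were bright enough to be tested and 12 were dim. The 22 stood among 11319 genes tested, and the 34 among 14217 genes with a symbol. Nek2, Tpx2, Anln, Ndc80 and Ckap2 had no probe set that carried their symbol alone and were not analysed here.

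Mitosis begins when cyclin B and the kinase Cdk1 drive the cell from G2 into chromosome condensation and spindle assembly. The spindle assembly checkpoint then holds the cell until every chromosome is attached to microtubules, and the anaphase-promoting complex releases it by marking cyclin B for destruction. Vinblastine, vincristine and colchicine bind tubulin and disturb spindle microtubules, so that dividing cells are held at that checkpoint. In the adult heart the cardiomyocytes divide rarely, and transcripts of this kind come largely from other cells of the tissue.

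RNA came from the hearts of male Wistar rats of the strain Crl:Wi(Han), and an age is not given in the labels. Each rat received, intravenously, vinblastine at 0.5 or 3 mg/kg, vincristine at 0.1 or 1 mg/kg, colchicine at 0.2 or 2 mg/kg, or the saline vehicle, and the heart was taken after 6 or 24 h. The 82 arrays form 14 groups of 6, except that vincristine at 0.1 mg/kg has 5 arrays at each time. The labels number the rats within a group and place none of them in a litter or a batch. The doses differ between the compounds, so their values are set side by side and are not compared with each other. All doses of one time were set against the same 6 saline rats, so these comparisons are not independent of each other.

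The deposited values are intensities on a linear scale, from 9.76 to 39497 over all probe sets, with array medians between 57.6 and 63.3. With 5 or 6 arrays to a group, that number limits the precision. Cardiomyocyte genes were the brightest of the marker genes, with Myl2 at a mean of 26230, Myh6 at 23893 and Tnnt2 at 23708. The mitosis genes sat at the other end of the scale. The 22 tested members had mean intensities from 32.5 for Cdkn3 to 143 for Plk1, and the 40th percentile of an array, used as the filter, lay between 38.5 and 44.1. A member was tested when it exceeded that percentile on at least 5 arrays, and Cdkn3, Kif2c, Birc5, Mki67, Racgap1, Cenpe and Cdca8 did so on 28 arrays or fewer. For such genes a part of the signal is background, and a fold change understates the change of the transcript. In bulk tissue, fewer cells of a type and less RNA per cell cannot be told apart.

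For 10 arrays the distance of the genome-wide profile to the median of the other arrays of its own group was over 1.3 times that to the median of another group. They were 1 array each of vinblastine 0.5 mg/kg at 6 h and at 24 h, vinblastine 3 mg/kg at 6 h, vincristine 0.1 mg/kg at 24 h, vincristine 1 mg/kg at 6 h, colchicine 0.2 mg/kg at 24 h, and colchicine 2 mg/kg at 6 h and at 24 h, and 2 arrays of colchicine 0.2 mg/kg at 6 h. They were kept, and where leaving them out changed a count of called members, the count without them is given here or with the alternatives. That alternative was added after the data had been seen. Other arrays passed a ratio of 1 without reaching 1.3, such as saline array 4 at 6 h with 1.22. Below, an array nearer another group means 1 of the 10 past 1.3. No array's values were identical to those of another.

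Many promoters of G2/M genes carry CCAAT boxes and, close to the start of transcription, a cell cycle genes homology region (CHR), which was searched here as TTTGAA and TTCGAA. RefSeq promoter windows of the GRCr8 build, from 250 bases before to 50 bases after the annotated start, were searched on both strands with overlapping matches kept, and TTCGAA reads the same on both. A window was given for 33 of the 39 listed genes and for 20 of the 22 tested members. Racgap1, Ube2c, Aurkb, Ccna2, Pbk and Tpx2 were not matched. The windows of Prc1, Nusap1 and Cdca3 are printed because these genes fell at the higher dose of every compound at 24 h, and that of Cdk1 because it is the central kinase of the set. Capitals mark CCAAT on either strand, where it reads ATTGG on the minus strand, and the CHR letters.
Cdk1: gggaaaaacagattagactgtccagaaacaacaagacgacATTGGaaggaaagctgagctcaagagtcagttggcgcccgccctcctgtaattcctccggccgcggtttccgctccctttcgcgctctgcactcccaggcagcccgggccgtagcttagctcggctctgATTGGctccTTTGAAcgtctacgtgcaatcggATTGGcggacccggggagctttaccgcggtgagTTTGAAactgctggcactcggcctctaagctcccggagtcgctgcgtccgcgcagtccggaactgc
Prc1: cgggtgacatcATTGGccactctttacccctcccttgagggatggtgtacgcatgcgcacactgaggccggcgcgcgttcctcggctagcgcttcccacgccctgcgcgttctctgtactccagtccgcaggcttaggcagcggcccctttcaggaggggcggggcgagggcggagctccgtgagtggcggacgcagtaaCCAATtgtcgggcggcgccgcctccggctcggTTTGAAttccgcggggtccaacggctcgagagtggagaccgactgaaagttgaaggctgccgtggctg
Nusap1: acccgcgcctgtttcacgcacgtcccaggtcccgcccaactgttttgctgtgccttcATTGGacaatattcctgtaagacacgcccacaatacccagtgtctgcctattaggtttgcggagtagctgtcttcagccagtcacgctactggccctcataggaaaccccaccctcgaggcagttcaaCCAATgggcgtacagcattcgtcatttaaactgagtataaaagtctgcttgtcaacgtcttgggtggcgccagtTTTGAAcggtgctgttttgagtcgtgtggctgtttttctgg
Cdca3: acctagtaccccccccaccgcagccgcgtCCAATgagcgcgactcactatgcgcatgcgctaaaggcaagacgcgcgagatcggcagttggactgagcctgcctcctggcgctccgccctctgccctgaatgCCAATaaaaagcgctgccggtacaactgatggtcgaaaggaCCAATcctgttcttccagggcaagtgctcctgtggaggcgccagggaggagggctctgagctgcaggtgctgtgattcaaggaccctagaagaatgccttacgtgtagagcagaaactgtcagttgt
These windows lie at chr20:19265043-19265342 for Cdk1, chr1:143659231-143659530 for Prc1, chr3:127057045-127057344 for Nusap1 and chr4:159320953-159321252 for Cdca3, all on the plus strand. Cdk1 held 3 CCAAT matches and a pair of TTTGAA matches, whose first bases lie 72 and 16 bases before the start. Prc1 held TTTGAA 18 bases before the start, Nusap1 held it from base 10 after the start, and Cdca3 held 3 CCAAT matches and no CHR letters in this window.

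**Figure D1:**
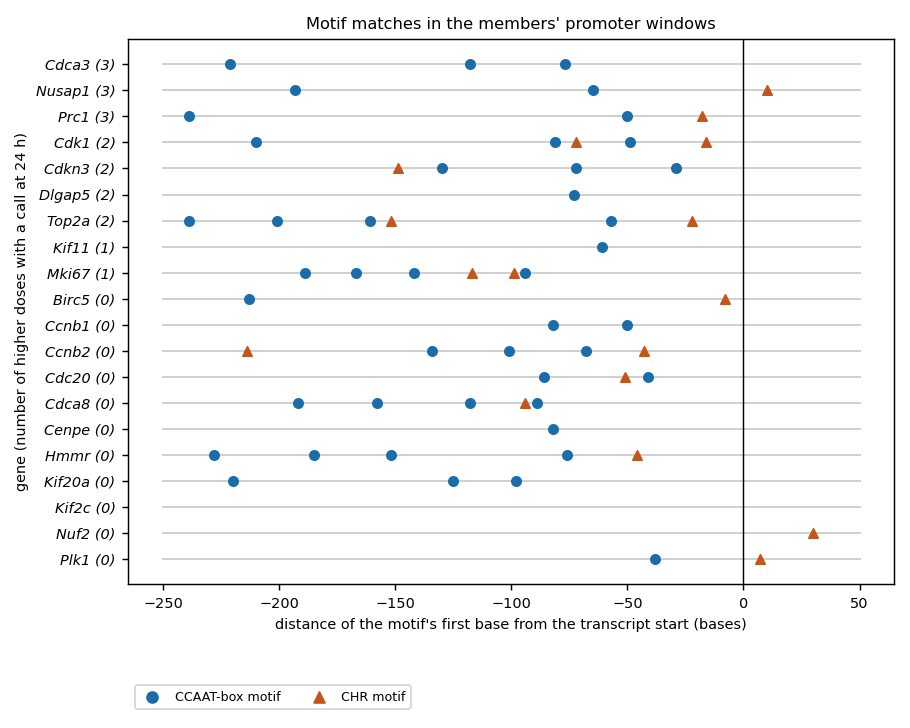
Positions of CCAAT matches (circles) and CHR matches (triangles) in the promoter windows of the 20 tested members with a window, in bases from the transcript start, which the vertical line marks. The number beside each gene counts the higher doses at which it was called lower at 24 h; CCAAT matches occur in members with and without such a call.

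CCAAT occurred in 18 of the 20 tested members with a window, against 37.7% of all 27457 promoters of the table, and at least 2 CCAAT matches occurred in 13 of the 20, against 11.5%. CHR letters occurred in 13 of the 20, against 19.5% of all promoters. The 9 members with a window that were called lower at 24 h held CCAAT in 9 cases and CHR letters in 6. The 11 members without such a call held CCAAT in 9 cases and CHR letters in 7. The share with CHR letters was 66.7% in members with such a call and 63.6% in those without. These are counts of letters, not measured binding sites.

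At 24 h after vinblastine at 3 mg/kg, 8 of the 22 members were lower than in saline rats and 0 were higher, by limma with Benjamini-Hochberg adjustment over the 11319 genes and a threshold of 0.05, which defines a called gene throughout. That is 36.4% of the members, where 4.28% of all genes were called lower. Over all 22 members the median log2 change was -0.20, against -0.01 over all genes, and 20 members lay below 0. The 8 members run from the kinase of mitotic entry to proteins that close the cell after division.

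Cdk1, the kinase that starts mitosis, read 61.8, 84.4 and 122 at the lowest, median and highest of the 6 saline arrays at 24 h, and 40.2, 50.2 and 70.5 after vinblastine. All but 1 treated array lay below the lowest saline array, and the log2 change was -0.60 ± 0.15 (SE; adjusted p = 0.0063), or 1.51-fold lower on the log2(intensity + 16) scale used for every change here. Cdkn3, a phosphatase that acts on cyclin-dependent kinases, read 26.6, 36.2 and 57.7 in saline and 23.1, 25.6 and 34.9 after vinblastine. Its log2 change was -0.32 (adjusted p = 0.048), and it is the dimmest member tested, with every treated array under the filter. Cdca3, which promotes entry into mitosis, read 64.1, 81.4 and 90.8 in saline and 48.3, 58.3 and 74.0 after vinblastine, with 4 of 6 treated arrays below every saline array (log2 change -0.31, adjusted p = 0.016).

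Among the chromosome and spindle proteins, Top2a, the topoisomerase that untangles sister DNA, read 40.4, 50.5 and 64.4 in saline and 33.3, 38.5 and 44.4 after vinblastine (log2 change -0.30, adjusted p = 0.013). The groups overlapped, with 3 treated arrays below the lowest saline array and all 6 below the saline mean. Kif11, the kinesin that pushes the spindle poles apart, read 52.7, 55.8 and 58.4 in saline and 38.8, 41.3 and 59.6 after vinblastine. The saline arrays of Kif11 were close together, 1 treated array exceeded all of them, and the change was small (log2 -0.22, adjusted p = 0.046). Nusap1, which bundles spindle microtubules near the chromosomes, read 103, 109.8 and 155 in saline and 70.3, 90.8 and 109.8 after vinblastine, with 5 of 6 treated arrays below every saline array (log2 change -0.33, adjusted p = 0.028).

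Prc1 and Racgap1 act in the last steps of division. Prc1 crosslinks the microtubules of the central spindle, and read 82.8, 134 and 165 in saline and 69.5, 86.6 and 92.2 after vinblastine. A single saline array overlapped the treated range, and the log2 change was -0.56 ± 0.15 (SE; adjusted p = 0.0066). Racgap1 is the GTPase-activating subunit of centralspindlin, the complex that guides the cleavage furrow. It read 38.7, 44.9 and 52.8 in saline and 23.0, 26.5 and 31.0 after vinblastine. The groups did not overlap, and the log2 change was -0.53 ± 0.11 (SE; adjusted p = 0.00083), or 1.44-fold lower.

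Of these 8 calls, those of Cdk1, Prc1 and Racgap1 held when each of the 12 arrays was left out in turn. The count fell from 8 to 4 without saline array 2, saline array 3 or vinblastine array 1, and it was 9, with cyclin gene Ccnb1 added (log2 change -0.22, adjusted p = 0.049), without the 10 arrays nearer another group. Without those 10 arrays 7.75% of all genes were called lower. In the fits that left out 1 array, here and below, that share was not counted.

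**Figure D2:**
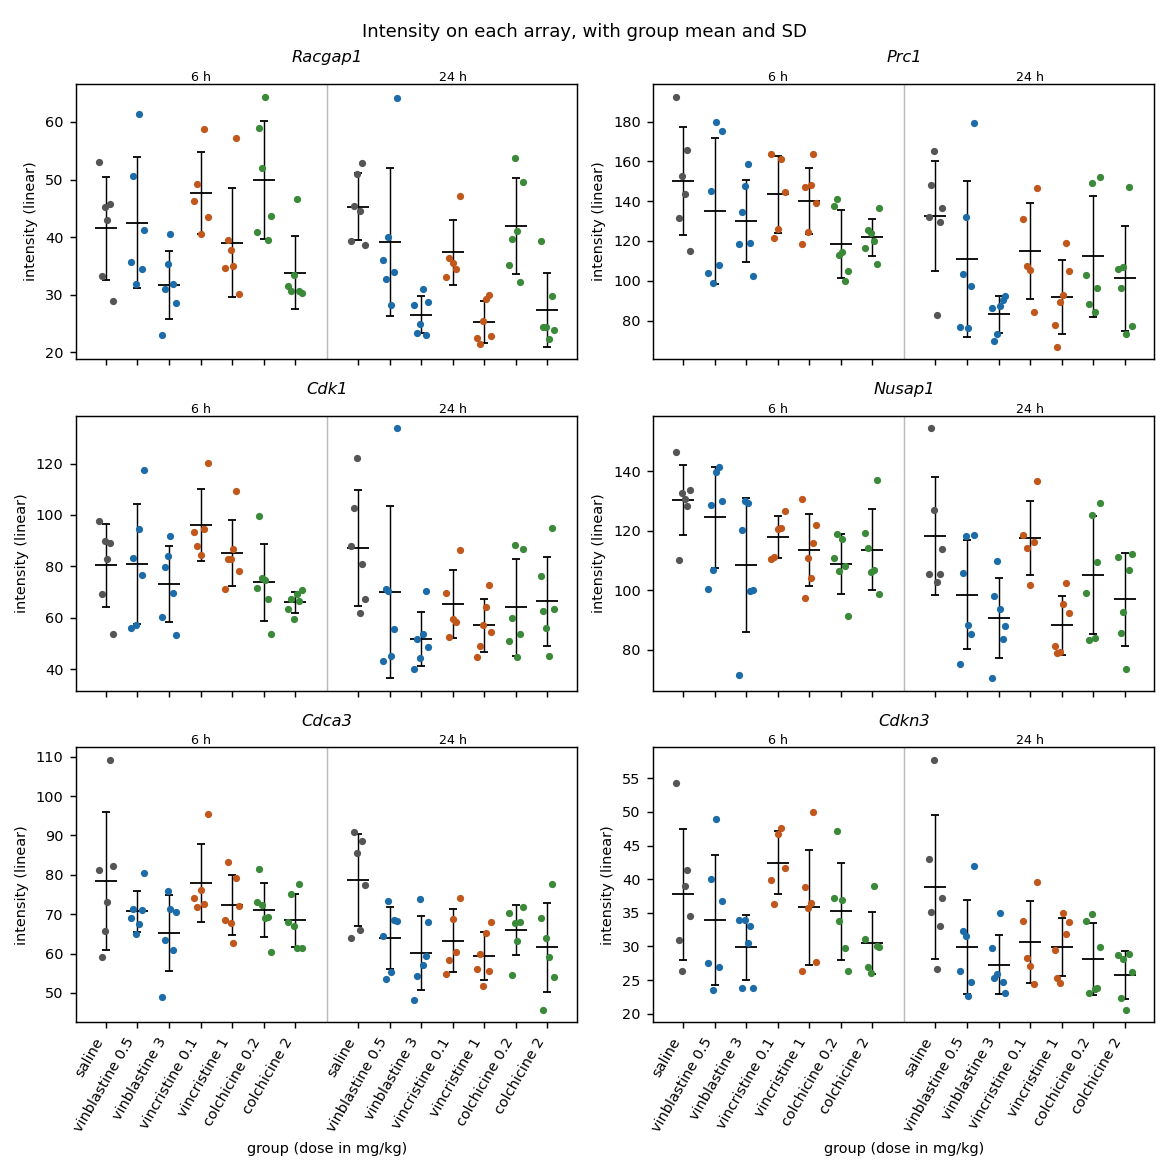
Intensity (linear scale) of 6 members on each array, by group, with the group mean as a horizontal bar and ± 1 SD as whiskers; the axes do not start at 0 and differ between panels. At 24 h, Racgap1 read 23.0 to 31.0 after vinblastine 3 mg/kg and 21.4 to 30.0 after vincristine 1 mg/kg, below all saline arrays at 38.7 to 52.8.

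At 24 h after vincristine at 1 mg/kg, 7 of the 22 members were called lower and 0 higher, or 31.8%, where 18.4% of all genes were called lower. The members' median log2 change was -0.13, against -0.01 over all genes, and 19 lay below 0. Over all genes this dose gave 2081 lower and 1356 higher calls, a split that became 1835 and 1845 after quantile normalization, under which 7 members were again called lower. Racgap1 had the largest change, as it read 21.4, 24.1 and 30.0 in the treated arrays, all below the lowest saline array at 38.7 (log2 change -0.57 ± 0.11 SE, adjusted p = 6.0e-05). Nusap1 read 78.7, 86.8 and 102.3, which ended just under the lowest saline array at 102.7 (log2 change -0.36, adjusted p = 0.0052).

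Cdca3 read 51.9, 58.0 and 68.0 after vincristine, with 4 of 6 arrays below every saline array (log2 change -0.32, adjusted p = 0.0039). These 3 genes kept their calls when any of the 12 arrays was left out. Cdk1 read 44.7, 55.8 and 72.8, with 4 of 6 arrays below every saline array (log2 change -0.48, adjusted p = 0.012), and Prc1 read 66.9, 91.0 and 119 (log2 change -0.46, adjusted p = 0.013). Top2a read 36.3, 40.1 and 43.9, and 3 of its 6 arrays lay below every saline array (log2 change -0.25, adjusted p = 0.019). Dlgap5, which stabilises the microtubule fibres that hold the kinetochores, read 89.4, 111 and 123 in saline and 79.1, 88.4 and 101 after vincristine (log2 change -0.23, adjusted p = 0.033). The call of Cdk1 and that of Top2a ended without saline array 3, and that of Prc1 without vincristine array 2. Dlgap5 lost its call in 6 of the 12 fits that left out an array. Without the 10 arrays nearer another group the count was again 7, where 20.5% of all genes were called lower.

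At 24 h after colchicine at 2 mg/kg, 7 of the 22 members were called lower and 0 higher, or 31.8%, where 25.3% of all genes were called lower. This share of the members is near the background of that comparison. Their median log2 change was -0.15, against 0.00 over all genes. Racgap1 read 22.3, 24.4 and 39.3, and 5 of the 6 arrays lay below every saline array. The sixth, at 39.3, was the array whose whole profile lay nearer another group, and the log2 change was -0.51 ± 0.11 SE with it (adjusted p = 0.00015) and -0.58 without the 10 such arrays (adjusted p = 1.2e-05).

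Cdkn3 read 20.6, 27.1 and 28.9 after colchicine, with 3 of 6 arrays below every saline array (log2 change -0.37, adjusted p = 0.0040). Dlgap5 read 64.9, 86.9 and 99.1 (log2 change -0.29, adjusted p = 0.0040), and Cdca3 read 45.7, 61.5 and 77.6 (log2 change -0.29, adjusted p = 0.0058). With Racgap1, these are the 4 calls that held when any of the 12 arrays was left out. Prc1 read 73.3, 101 and 147 and overlapped the saline range widely (log2 change -0.35, adjusted p = 0.048). Mki67, the Ki-67 protein that coats mitotic chromosomes and is the standard marker of proliferating cells, read 30.8, 41.3 and 63.8 in saline and 24.4, 29.5 and 40.8 after colchicine (log2 change -0.29, adjusted p = 0.033). Nusap1 read 73.3, 99.7 and 112 (log2 change -0.25, adjusted p = 0.043). Prc1, Mki67 and Nusap1 each lost the call in 6 or more of the 12 fits, and the count was 4 without saline array 2, saline array 3, or colchicine array 2, 3 or 4. Without the 10 arrays nearer another group the count was 8, with Cdk1 added (log2 change -0.36, adjusted p = 0.048), where 28.2% of all genes were called lower.

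**Figure D3:**
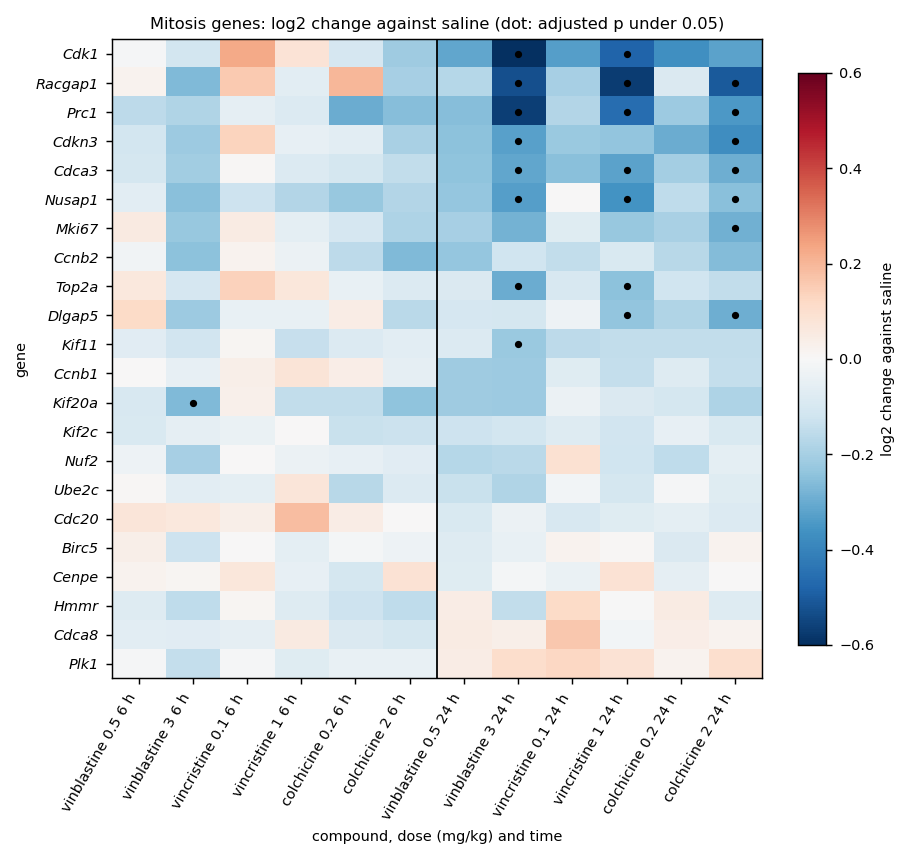
Log2 change of each of the 22 tested members (rows) against saline of the same time, for the 12 compound, dose and time groups (columns); blue is lower than saline, red is higher, and a dot marks an adjusted p under 0.05. At 24 h the dots lie only in the columns of the higher doses, 8 for vinblastine, 7 for vincristine and 7 for colchicine, and 1 dot lies at 6 h.

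Prc1, Nusap1, Cdca3 and Racgap1 were called lower at the higher dose of all 3 compounds at 24 h. Of all genes, 4.28%, 18.4% and 25.3% were called lower in these comparisons, which share their saline rats. The share of all genes called in all 3 was not counted, so this overlap is not read as particular to the set. Cdk1 and Top2a were called for vinblastine and vincristine, Cdkn3 for vinblastine and colchicine, Dlgap5 for vincristine and colchicine, Kif11 for vinblastine and Mki67 for colchicine. For Cdk1 the log2 changes stood at -0.60, -0.48 and -0.32 for vinblastine, vincristine and colchicine in that order, and the last did not pass (adjusted p = 0.083). Mki67 stood at -0.28, -0.23 and -0.29, so the member with a single call had similar values at all 3 doses. Whether a member's change differs between compounds was not tested, since the doses differ.

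The other 12 tested members had no call at 24 h. The cyclins that activate Cdk1 were among them. Ccnb1 had log2 changes of -0.22, -0.14 and -0.14 for vinblastine, vincristine and colchicine, and Ccnb2 had -0.12, -0.09 and -0.26. Plk1, the polo-like kinase of spindle and centrosome maturation and the brightest member, read 114, 127 and 158 in saline and 132, 139.5 and 181 after vinblastine at 3 mg/kg, a log2 change of 0.11 (adjusted p = 0.49). It stood at 0.09 and 0.10 after vincristine and colchicine, and so lay above 0 where most of the set lay below it. The kinetochore motor Cenpe, the chromosomal passenger proteins Birc5 (survivin) and Cdca8 (borealin), and the checkpoint target Cdc20 lay between -0.08 and 0.09 in these 3 comparisons. Cdc20 has 5 probe sets, and their changes at the 3 doses lay between -0.08 and 0.09 too. Kif20a, Kif2c, Ube2c, Hmmr and Nuf2 lay between -0.22 and 0.00.

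For called members with a second, dimmer probe set, both pointed the same way. The second set of Racgap1 had log2 changes of -0.14 for vinblastine, -0.13 for vincristine and -0.17 for colchicine, smaller than those of the brighter set, at a mean intensity of 27.9 against 37.7. For Nusap1 they were -0.26, -0.23 and -0.21, for Top2a -0.19, -0.18 and -0.14, and for Kif11 -0.21, -0.16 and -0.09. The 12 dim members, Aurka, Aurkb, Bub1, Bub1b, Ttk, Cenpf, Kif23, Ccna2, Melk, Pbk, Ect2 and Spc25, had mean intensities from 16.1 for Ccna2 to 31.0 for Pbk and were outside the main test. They include the Aurora kinases and the checkpoint kinases Bub1 and Ttk, for which these arrays gave little signal. In a fit with no filter, 7, 9 and 6 of the 34 members were called at the 3 higher doses at 24 h, where 3.24%, 14.5% and 20.1% of all genes were called lower. The kinase gene Melk was among them each time, with log2 changes of -0.14, -0.18 and -0.15 for vinblastine, vincristine and colchicine (adjusted p = 0.045, 0.0025 and 0.0056). Aurkb was called for vincristine (-0.14, adjusted p = 0.040). For vinblastine and colchicine these counts, with Melk included, are under the main counts of 8 and 7.

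At the lower doses 0 members were called at 24 h by limma, where 0% of all genes were called lower in each of these comparisons, and 7, 4 and 4 members had an unadjusted p under 0.05 for vinblastine 0.5, vincristine 0.1 and colchicine 0.2 mg/kg. Below 0 lay 19, 16 and 19 of the 22 members, with median log2 changes of -0.15, -0.07 and -0.11. After vinblastine at 0.5 mg/kg the smallest unadjusted p belonged to Cdca3 (log2 change -0.24), Ccnb1 (-0.21) and Nusap1 (-0.23). After vincristine at 0.1 mg/kg they belonged to Cdca3 (-0.25), Cdk1 (-0.33) and Cdca8 (0.16), and after colchicine at 0.2 mg/kg to Cdkn3 (-0.30), Cdk1 (-0.37) and Cdca3 (-0.20). For Cdk1 the 5 arrays of vincristine 0.1 mg/kg at 24 h read 69.5, 52.4, 59.4, 58.3 and 86.1, and the highest of them was the array nearer another group. Against saline arrays from 61.8 to 122 these values overlapped, with 3 of 5 below the lowest saline array.

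Set directly against the lower dose of the same compound at 24 h, Racgap1 was called lower for vincristine and colchicine. After vincristine it read 33.1, 36.3, 35.5, 34.5 and 47.2 at 0.1 mg/kg, and all 6 arrays at 1 mg/kg lay below these, at 21.4 to 30.0 (log2 change -0.37, adjusted p = 0.016). In this comparison 2 of 22 members were called lower, where 11.6% of all genes were, and the other was Nusap1 (-0.36, adjusted p = 0.010). Without array 5 of the lower dose, the one nearer another group and the highest for Racgap1, Nusap1 alone was called, while without all 10 such arrays both were (-0.31 each). After colchicine Racgap1 read 32.2, 40.3 and 53.8 at 0.2 mg/kg against 22.3, 24.4 and 39.3 at 2 mg/kg (log2 change -0.42, adjusted p = 0.0019), the single member called, where 22.7% of all genes were called lower. After vinblastine 0 members passed by limma (4 at an unadjusted p under 0.05), where 1.56% of all genes were called lower. Racgap1 came closest there, with -0.35 and an adjusted p just over the threshold, and passed with -0.37 (adjusted p = 0.018) without the 10 arrays nearer another group.

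At 6 h a single member was called over all 6 doses. After vinblastine at 3 mg/kg 1 of the 22 members was called lower, where 7.67% of all genes were, and 0 higher. This was Kif20a, the kinesin that carries chromosomal passenger proteins to the central spindle. It read 49.7, 70.0 and 88.3 in saline and 46.2, 53.9 and 63.7 after vinblastine, and the ranges overlapped (log2 change -0.26, adjusted p = 0.049). The call ended in 8 of the 12 fits that left out an array and in the fit without the 10 arrays nearer another group, where 0 members were called. The count rose to 5 without saline array 2 or vinblastine array 3, in fits where the share of all genes called lower was not counted. Below 0 lay 20 of the 22 members, with a median log2 change of -0.15 against 0.01 over all genes. Over all genes this dose gave 868 lower and 1774 higher calls, which became 1314 and 1469 after quantile normalization.

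After vincristine at 1 mg/kg at 6 h 0 members were called by limma (1 at an unadjusted p under 0.05), where 1.25% of all genes were called lower. The smallest unadjusted p was that of Cdc20, the activator of the anaphase-promoting complex, with a log2 change of 0.18, followed by Kif11 (-0.14) and Nusap1 (-0.18). After colchicine at 2 mg/kg 0 members were called (3 unadjusted), where 4.37% of all genes were called lower, although 20 of the 22 lay below 0. Of all genes 51.2% lay below 0 in that comparison. Kif20a (-0.24), Kif2c (-0.13) and Ccnb2 (-0.27) came first there. The lower doses gave 0 calls at 6 h, where 0.0265% of all genes for vinblastine 0.5 mg/kg, 0% for vincristine 0.1 mg/kg and 0.0265% for colchicine 0.2 mg/kg were called lower, and 0, 0 and 3 members had an unadjusted p under 0.05. For vincristine at 0.1 mg/kg most members lay above 0, with 7 of 22 below it and Cdk1 at 0.23 (unadjusted p = 0.16), while 49.1% of all genes lay below 0.

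Between doses at 6 h, Dlgap5 was lower at 3 than at 0.5 mg/kg of vinblastine, reading 73.2, 81.9 and 92.1 at the higher dose and a mean of 108 ± 15.9 (SD, n = 6) at the lower (log2 change -0.33, adjusted p = 0.013), the single member called, where 2.71% of all genes were called lower. It kept the call without the 10 arrays nearer another group (-0.32, adjusted p = 0.012) and lost it without vinblastine 3 mg/kg array 1, where 0 members were called. Over all genes the split was 307 lower and 658 higher, or 562 and 654 after quantile normalization. Racgap1 was lower at 2 than at 0.2 mg/kg of colchicine, reading 30.3, 31.0 and 46.5 against 39.5, 47.8 and 64.4 (log2 change -0.40, adjusted p = 0.014), the single member called, where 4.78% of all genes were. The array at 46.5 is again one nearer another group. Without the 10 arrays the change was -0.55 and Dlgap5 passed as well (-0.27, adjusted p = 0.046), while without array 4 of the lower dose 0 members were called. For vincristine 0 were called (0 unadjusted), where 1.2% of all genes were called lower.

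Whether a member moved more at 24 h than at 6 h was tested at each higher dose, as the log2 change at the later time less that at the earlier. Racgap1 after vincristine passed, with -0.51 (adjusted p = 0.026). Its mean was 41.5 in saline and 39.0 in treated rats at 6 h, and 45.3 and 25.2 at 24 h. It was 1 of 22 members, where 8.73% of all genes were called lower, and the split over all genes of 988 lower and 399 higher became 575 and 675 after quantile normalization. The call ended without saline array 6 at 6 h, saline array 5 at 24 h or vincristine array 5 at 6 h, and without the 10 arrays Top2a passed too (-0.35, adjusted p = 0.031). For vinblastine 0 members were called (2 unadjusted), where 2.66% of all genes were called lower, or 301 lower and 201 higher, which became 227 and 372 after quantile normalization. Cdk1 had the smallest p there, with -0.49. For colchicine 0 were called (0 unadjusted), where 12.6% of all genes were called lower, or 1425 lower and 713 higher, which became 1262 and 1131. For the other members, a call at 24 h and none at 6 h is therefore not a tested difference between the times. In saline rats 0 members differed between 24 and 6 h by limma (2 unadjusted), where 0.00883% of all genes were called lower at 24 h, and Hmmr (-0.22) and Plk1 (-0.17) had the smallest p.

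The mean of the 22 members on the log2 scale gives each array a single level. It was 6.31 ± 0.11 (SD, n = 6) in saline at 24 h, 6.09 ± 0.07 after vinblastine 3 mg/kg, 6.13 ± 0.06 after vincristine 1 mg/kg and 6.14 ± 0.12 after colchicine 2 mg/kg, which are differences of -0.21, -0.17 and -0.17. At the lower doses the differences were -0.14, -0.07 and -0.12. Of the treated arrays at the higher doses, 4, 3 and 2 of 6 lay below the lowest saline array at 6.11, and at the lower doses 4 of 6, 0 of 5 and 2 of 6 did, so the level overlapped with saline at every dose. For vinblastine and colchicine this count was the same at both doses. At 6 h it was 6.34 ± 0.12 in saline, and the differences were -0.14 for vinblastine 3 mg/kg, -0.13 for colchicine 2 mg/kg, -0.08 for colchicine 0.2 mg/kg and between -0.03 and 0.03 for the other doses. In colchicine 2 mg/kg at 6 h the 6 arrays lay close together, at 6.17 to 6.24. This level is a description and was not tested.

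**Figure D4:**
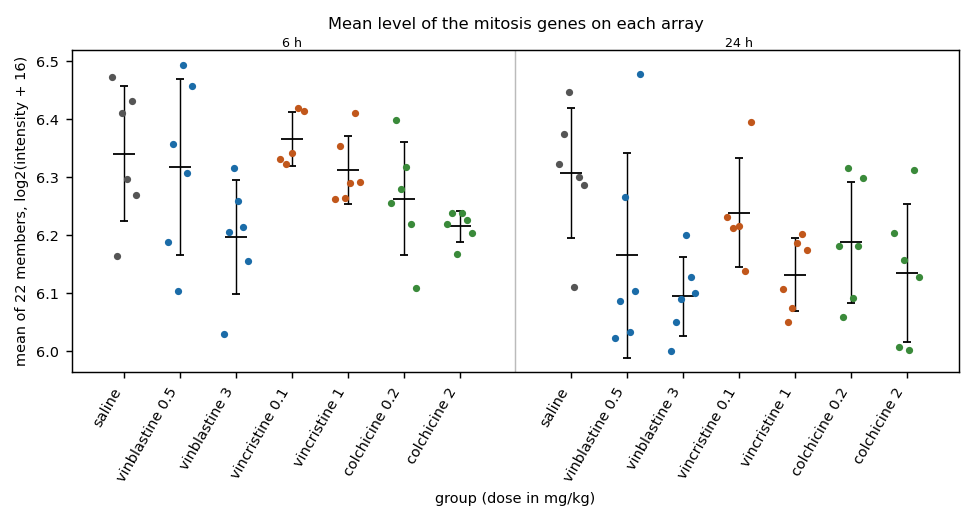
Mean of the 22 members' log2(intensity + 16) on each array, by group, with group mean and ± 1 SD; the axis does not start at 0. At 24 h the higher doses centre on 6.09 to 6.14 against 6.31 in saline, and the single high array of vinblastine 0.5 mg/kg lies at 6.48.

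Rats of the same group also differed in how much of the set they expressed. After each group's mean was removed, the members correlated with each other over the 82 arrays with a median Pearson r of 0.31 over 231 pairs, from -0.24 to 0.84. This step removes the average difference between groups, but not an unequal response of the rats within a treated group. All 82 arrays were used, among them those nearer another group. The arrays also share the normalization and, for dim genes, the background. The highest pair was Cdk1 and Prc1, and Top2a with Mki67 reached 0.75. With the mean of the other members, Cdk1 had an r of 0.81, Prc1 0.81, Ccnb2 0.77 and Top2a 0.71. Plk1 was lowest, at 0.17, with Kif2c at 0.22 and Birc5 at 0.25. Over the genes outside the set the median r with the members' mean was -0.02 and the 95th percentile 0.21, and 21 of the 22 members lay above that percentile. Plk1 was the exception.

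**Figure D5:**
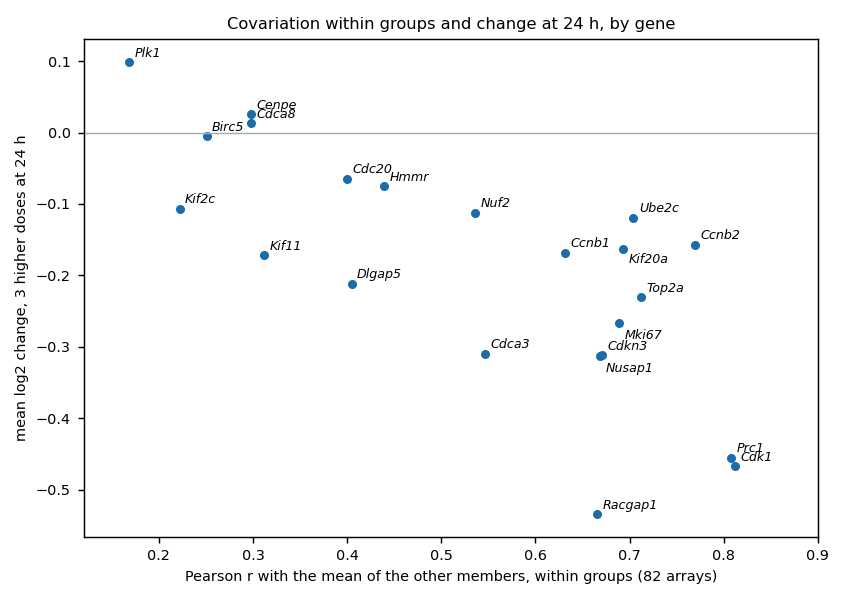
Each point is 1 of the 22 tested members: its Pearson r with the mean of the other members within groups (82 arrays) on the x axis, and the mean of its log2 changes at the 3 higher doses at 24 h on the y axis. Plk1 lies at 0.17 and 0.10, and Cdk1 at 0.81 and -0.47.

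Members that varied together within groups were mostly those that fell. The 11 members with the highest r had a median change of -0.27 over the 3 higher doses at 24 h, and 7 of them were called in at least 1 of these comparisons. The other 11 had a median of -0.08, with 3 called. Ccnb2, Ube2c, Kif20a and Ccnb1 had an r from 0.63 to 0.77 and were not called at 24 h. These values are a description over genes, which are not independent. An unequal response within treated groups can enter both r and the change, and its part was not tested.

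Other genes of the cell cycle were taken as lists written by function. Of 15 tested genes of cyclin-dependent kinase inhibition and checkpoints, 6 rose and 0 fell at 6 h after vinblastine 3 mg/kg, where 15.7% of all genes were called higher. The growth arrest genes Gadd45a and Gadd45b, and Gadd45g of the same family, had the largest changes, with log2 values of 1.32, 1.14 and 1.24. Gadd45b (0.88) and Gadd45a (0.80) rose at 6 h after vincristine 1 mg/kg, where 2.05% of all genes were called higher. Gadd45b (1.47), Gadd45a (1.11) and Ccng1 (0.26) rose at 6 h after colchicine 2 mg/kg, where 4.89% of all genes were called higher. Gadd45a is induced by DNA damage and other stress, and it restrains Cdk1 with cyclin B.

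At 24 h the values of the same list were as follows, with no comparison between compounds. After vinblastine 3 mg/kg 0 rose, where 5.29% of all genes were called higher, and the polo-like kinase Plk2 fell (-0.46, adjusted p = 0.012), where 4.28% of all genes were called lower. After vincristine 1 mg/kg 3 rose, Gadd45g (1.13), Gadd45a (0.76) and the kinase inhibitor p27, encoded by Cdkn1b (0.37), where 12% of all genes were called higher. After colchicine 2 mg/kg 7 rose and 2 fell, where 19.3% of all genes were called higher and 25.3% lower. Gadd45g (1.70), Gadd45a (1.29) and Cdkn1a, the p53 target p21 (0.86), led there.

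Of 20 tested genes of DNA replication and the G1/S transition, 2, 4 and 6 fell at 24 h after vinblastine 3, vincristine 1 and colchicine 2 mg/kg, where 4.28%, 18.4% and 25.3% of all genes were called lower. The counts after vincristine and colchicine are near those shares, and the median log2 changes over the 20 were -0.06, -0.09 and -0.08. Ccnd1, the cyclin D that carries cells out of G1, fell by 0.72 after vinblastine and by 0.76 after colchicine on the log2 scale. The replicative helicase genes Mcm7 (-0.30 after vinblastine, -0.29 after vincristine) and Mcm5 (-0.34 after vincristine) fell as well. So did the ribonucleotide reductase gene Rrm1 (-0.27 after vincristine, -0.53 after colchicine) and the clamp loader gene Rfc3 (-0.29 after colchicine). At colchicine 2 mg/kg 1 gene of the list, the sliding clamp Pcna, rose. At 6 h 1 gene of the list, the cyclin Ccne1, passed in the higher-dose comparisons (-0.18 after vinblastine 3 mg/kg).

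Further mitotic genes outside the list did not move as one. Of 17 tested kinetochore, spindle and checkpoint genes, 0 fell and 1 rose at 24 h after vinblastine 3 mg/kg, 2 fell and 3 rose after vincristine 1 mg/kg, and 4 fell and 2 rose after colchicine 2 mg/kg. Of all genes, 4.28%, 18.4% and 25.3% were called lower and 5.29%, 12% and 19.3% higher in these comparisons, and the counts of 17 are near those shares or under them. Zwint, a kinetochore scaffold protein, read a mean of 1093 in saline and rose by log2 0.56 after vincristine and 0.83 after colchicine. Its partner Zw10 rose by 0.35 and 0.66, the kinetochore protein Cenpp rose by 0.76 after vinblastine and 0.42 after vincristine, and Ska2 fell by 0.56 after vincristine and by 0.56 after colchicine.

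Of 23 tested genes of mitotic entry, condensation and exit, 2, 5 and 4 fell and 1, 1 and 3 rose at the 3 higher doses at 24 h, against the same shares of all genes. The count of 5 after vincristine is near its share of 18.4%, and that of 4 after colchicine is under its share of 25.3%. The microtubule-destabilising protein gene Stmn1 fell by 0.44, 0.57 and 0.97, and the lamin gene Lmnb1 by 0.43, 0.52 and 0.51, after vinblastine, vincristine and colchicine. Ncapg2, a condensin II subunit, fell by 0.80 after vincristine and by 0.76 after colchicine. Cdc25b, the phosphatase that activates Cdk1, rose by 0.49 after vinblastine and 0.43 after colchicine. Of 15 anaphase-promoting complex genes and activators, 2, 4 and 3 fell, where 4.28%, 18.4% and 25.3% of all genes were called lower. Fzr1, the activator that keeps the complex on in G1, changed by -0.23, -0.40 and -0.17, and Cdc16 rose by 0.23 after colchicine.

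Markers of other cell types moved in the same comparisons. The erythroid genes Slc4a1, Alas2 and Hbb were called lower in 3 of 3 cases after vinblastine 3 mg/kg and vincristine 1 mg/kg at 24 h and in 1 of 3 after colchicine 2 mg/kg. Their summed intensity ran from 12064 to 14106 in saline, from 7815 to 11292 after vinblastine, from 6363 to 10594 after vincristine and from 8991 to 12352 after colchicine. This sum is mostly Hbb, whose mean over all arrays was 11380, against 394 for Alas2 and 187 for Slc4a1. Slc4a1, the band 3 protein of red cells and their precursors, changed by log2 -1.002, -1.49 and -1.67. In these comparisons 4.28%, 18.4% and 25.3% of all genes were called lower. Of 5 fibroblast markers, 0 fell after vinblastine, 3 after vincristine and 4 after colchicine, and their sum ran from 24852 to 30725 in saline and from 22485 to 27379, from 19017 to 24573 and from 16621 to 24046 in the treated groups. The part of these markers in the fall of the mitosis genes was not tested.

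Of 5 tested macrophage markers, 2 were higher after vinblastine, 3 were higher after vincristine, and 2 were higher and 1 lower after colchicine, where 5.29%, 12% and 19.3% of all genes were called higher. Their sum over 6 genes ran from 896 to 1036 in saline, from 1195 to 1677 after vinblastine, from 1028 to 1361 after vincristine and from 601 to 1106 after colchicine. The sum lay above all saline arrays after vinblastine, and overlapped with them after vincristine and on both sides after colchicine. The sum of 4 neutrophil markers ran from 111 to 148 in saline and from 181 to 239, 297 to 660 and 172 to 665 in the treated groups. S100a9 is the brightest of the 4, with a mean over all arrays of 263, against 68.9 for S100a8. Of the defining T, B and neutrophil genes, Cd3e, Ms4a1, Csf3r and Cxcr2 were under the filter, and the T and NK cell sum ran from 201 to 240 in saline and from 201 to 245 in the 3 treated groups. Their part was not tested either. Endothelial markers split, with Emcn lower after vincristine and colchicine (log2 -0.42 and -0.80) and Pecam1 higher at all 3 higher doses (0.36, 0.46 and 0.53), and the sum of 5 ran from 4240 to 5492 in saline and from 4073 to 5827 in the treated groups. Of 5 pericyte and smooth muscle markers, Rgs5 fell by 0.75 after vincristine and by 1.14 after colchicine, and Cspg4 rose at all 3 higher doses. Of 4 cardiomyocyte markers, 0, 1 and 2 fell, with Myh6 at -0.24 and -0.27 after vincristine and colchicine. Of all genes, 4.28%, 18.4% and 25.3% were called lower and 5.29%, 12% and 19.3% higher at these 3 doses. The calls of all these markers at 24 h stand beside those shares. At 6 h, when 1 mitosis gene was called, the neutrophil genes S100a9 and S100a8 were already higher after vinblastine 3 mg/kg (log2 3.68 and 2.38) and the macrophage genes C1qa and Csf1r lower (-0.83 and -0.58).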

How the data were processed

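Total RNA of 82 rat hearts was labelled with biotin and hybridised to Affymetrix 3' expression arrays, per the labels' protocols. The deposited values are intensities on a linear scale, 1 per probe set and array, already summarised by the authors. How they were summarised and normalized is not given in the sources used here, and they were used as deposited. No column belonged to a sample outside the series (0 columns). Of 31099 probe sets, 20826 carried 1 gene symbol in GEO's platform annotation, 436 carried several and were not named, and the symbols covered 14217 genes. Each gene was taken by its brightest probe set, on average, and tested where 5 or more arrays showed it above their own 40th percentile.

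Log2(intensity + 16) was fitted with limma 3.58.1 in R 4.3.3, with 14 group means over all 82 arrays, eBayes (68 residual degrees of freedom) and Benjamini-Hochberg adjustment over 11319 genes in each of 22 comparisons (12 of a dose against saline, 6 of the higher against the lower dose, 3 of the change at 24 h minus that at 6 h, and 1 of saline at 24 h against 6 h). A gene was called at an adjusted p under 0.05. The script was tested on simulated data. The treated and saline groups hold 1 rat per array, as far as the labels say, and no source ties a replicate number to a shared litter or day.

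The members, the other lists and the tests were chosen with earlier results of these data known. Members called against saline are given in full, up to 8 per comparison; where none was called, the 3 with the smallest unadjusted p are given; from each other list, up to 3 called genes per comparison with the largest change are named. Alternatives changed the pseudocount (1), the filter (none, or the 60th percentile), the normalization (quantile), the probe set rule, the samples in the fit, array weights, a replicate block and the arrays kept.

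The replicate numbers were checked for pairing by correlating the deviations of same-numbered arrays of treated and saline groups. Over 70 pairs r ran from -0.38 to 0.45 with a median of 0.01, and 20 were over 0.1, most of them at 6 h. Arrays with different numbers were not compared in this way, so the check does not settle whether the numbers pair the arrays.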

Additional observations from a re-analysis of the deposited data

Results flagged for a closer look

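The 11 members called against saline and the mean of all tested members were each examined in the 14 groups for a single array far from the others. Of these 168 sets of arrays, 12 had one (7.14%). The cut used gives about 1 in 20 for independent sets of normally distributed values. The members were examined on the linear scale and share their arrays, so that rate does not measure chance here. All 12 belonged to single members and were high. Racgap1 accounted for 4 of them, at 64.2 in vinblastine 0.5 mg/kg at 24 h (array 6), 47.2 in vincristine 0.1 mg/kg at 24 h (array 5), 57.2 in vincristine 1 mg/kg at 6 h (array 5) and 46.5 in colchicine 2 mg/kg at 6 h (array 4). The arrays at 47.2 and 46.5 are among the 10 past the distance ratio of 1.3. Those at 64.2 and 57.2 had ratios of 1.12 and 1.16, so they too lay somewhat nearer another group. Cdk1 read 134 on the same array 6 of vinblastine 0.5 mg/kg at 24 h, and 120.1 on array 5 of vincristine 0.1 mg/kg at 6 h, where Cdca3 also stood apart at 95.5. Mki67 read 63.6 on the same array 5 of vincristine 1 mg/kg at 6 h as Racgap1. The others were Dlgap5 at 122 in colchicine 0.2 mg/kg at 6 h (array 2), Kif11 at 56.4 in vinblastine 3 mg/kg at 6 h (array 5), Kif20a at 69.7 in colchicine 0.2 mg/kg at 24 h (array 3) and Top2a at 56.7 in colchicine 2 mg/kg at 6 h (array 6).

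The change of Racgap1 after vincristine 1 mg/kg differed between 24 h and 6 h by -0.51 on the log2 scale (limma, adjusted p = 0.026). Its call ended without vincristine array 5 at 6 h, the array at 57.2.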

How the results depend on the processing

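The alternatives were run for the counts of called members and for the change of each called member in the comparison that called it. None of those changes reversed. Of 273 refits of a called member's change that kept all replicates or left out the labelled or distant arrays, 245 stayed past the threshold and 28 did not, and of 358 that left out 1 array, 286 stayed and 72 did not. The filter at the 60th percentile tested 7 members, and with it 3, 4 and 3 were called at 24 h for vinblastine 3, vincristine 1 and colchicine 2 mg/kg. Of all genes, 5.47%, 22.9% and 30.7% were called lower with this filter. With the main filter and 1 array left out, the main counts of 8, 7 and 7 among 22 members ran from 4 to 8, from 5 to 8 and from 4 to 10. For colchicine 4 were called without the 6 arrays whose description ends in _2, a mark the labels do not explain. Without those arrays 24.3% of all genes were called lower.

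For vinblastine 3 mg/kg at 6 h the count of 1 became 0 with a pseudocount of 1, no filter, the stricter filter, quantile normalization, only the groups compared, array weights or without the 10 arrays nearer another group, became 2 with the mean of probe sets, and ran from 0 to 5 with 1 array left out. With the mean of probe sets, 8.12% of all genes were called lower there. For colchicine 2 mg/kg at 6 h the count of 0 became 4 with array weights and 1 without the _2 arrays, and ran from 0 to 1. Under those alternatives, in that order, 11.9% and 3.65% of all genes were called lower. Between doses, vinblastine at 6 h went from 1 to 0 with only the groups compared and 0 without the _2 arrays (0 to 1 with 1 array left out). Colchicine at 6 h went from 1 to 0 with the stricter filter, 2 with array weights and 2 without the 10 arrays (0 to 1). Vinblastine at 24 h went from 0 to 1 with a pseudocount of 1, array weights, without the _2 arrays and without the 10 arrays (0 to 1). Vincristine at 24 h went from 2 to 1 with the stricter filter and 4 with only the groups compared (1 to 3), and colchicine at 24 h from 1 to 0 with the stricter filter. The vincristine difference between times went from 1 to 0 with the stricter filter, 2 with only the groups compared and 2 without the 10 arrays (0 to 2). Of all genes, 13.2% and 7.34% were called lower where colchicine at 6 h gave 2, and 1.5% to 6.33% where vinblastine at 24 h gave 1. The share was 15.8% where vincristine at 24 h gave 4, and 9.81% and 10.7% where its difference between times gave 2. Where a filter or left-out arrays did not make the change, the cause was not tested.

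With the replicate number as a block, 7, 7 and 6 members were called at 24 h for vinblastine 3, vincristine 1 and colchicine 2 mg/kg. Of all genes, 4.51%, 18.9% and 25.7% were called lower in this fit. Cdkn3 after vinblastine (adjusted p = 0.054) and Prc1 after colchicine (0.050) lost their calls. The labels do not say whether arrays with the same number belong together, and why these calls were lost was not tested. The dim signal of most members limits what these arrays can show.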
